A study of Mus musculus with 27 samples.

Results

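The genes described here encode 10 carriers of amino acids and small peptides in the enterocyte, the absorptive cell of the intestine. They were chosen by name as apical or basolateral carriers and matched by Ensembl identifier, and all 10 were found among the 46078 genes of the count tables. *Slc15a1*, *Slc6a19*, *Slc6a20a*, *Slc7a9*, *Slc3a1* and *Slc1a1* act at the apical membrane, and *Slc7a7*, *Slc7a8*, *Slc3a2* and *Slc16a10* at the basolateral membrane. Transcripts were measured by RNA-Seq in scrapings of the distal ileal epithelium from 27 male C57BL/6 mice. The mice received sesame oil alone (vehicle) or TCDD, the most potent dioxin and a persistent agonist of the aryl hydrocarbon receptor (AhR). They were gavaged once every 4 d for 28 d and killed at postnatal day 56. In each group, 3 mice were sequenced out of a larger number dosed. Mice of a dose were co-housed and the labels give no cage, so cage cannot be told apart from dose. Each group kept its own dose, which was 0.01, 0.03, 0.1 or 0.3 µg/kg in the low range, 1 or 3 µg/kg in the middle and 10 or 30 µg/kg at the top. All mice, controls included, were fasted before death. Each mouse gave 1 library, and mice are named by the number in their label.

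Dietary protein reaches the enterocyte as free amino acids and as di- and tripeptides. PEPT1, encoded by *Slc15a1*, takes up the peptides with protons, B0AT1 (*Slc6a19*) takes up neutral amino acids with sodium, and SIT1 (*Slc6a20a*) takes up proline and related imino acids, while EAAC1 (*Slc1a1*) carries glutamate and aspartate. Several carriers are heterodimers of a light chain that transports and a heavy chain that brings it to the membrane, namely *Slc7a9* with the heavy chain rBAT (*Slc3a1*) on the apical side, and *Slc7a7* or *Slc7a8* with the heavy chain CD98 (*Slc3a2*) on the basolateral side. TAT1 (*Slc16a10*) lets aromatic amino acids leave the cell towards the blood.

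Between 12.3 and 17.1 M counts fell on genes in each mouse, with a median of 14.1 M. Each carrier had from 475 counts (*Slc7a8*) to 32842 counts (*Slc6a19*) in a mouse, so sampling error was small against the spread between mice. Levels are given as CPM, the counts relative to the library's total after scaling by trimmed mean of M values, and a gene was called at a dose when edgeR's quasi-likelihood test gave a Benjamini-Hochberg adjusted p of at most 0.05 over 16741 genes together with a fold change of at least 1.5. *Cyp1a1*, the AhR target used as a check of exposure, was at most 0.887 CPM in the mice given vehicle or up to 0.3 µg/kg TCDD, 3.32 to 6.3 CPM at 1 µg/kg and 14.2 to 64.7 CPM at 3 µg/kg. It reached 516.5 to 647 CPM in the mice given 10 µg/kg and 1062 to 2279 CPM in those given 30 µg/kg. All 10 enterocyte markers were detected in every group, as was the ileal marker *Fabp6*. Library index sequences recur between mice, and their uses were numbered here in order of mouse number. The sequences themselves give neither an order of use nor a batch. By this numbering, the first use covered 16 mice, from vehicle to 0.3 µg/kg and mouse 41. The second use covered 11 mice, namely mice 43 and 44 and all mice at 3, 10 and 30 µg/kg. Between vehicle and the highest doses, dose therefore cannot be told apart from index use. A score from 15 clock genes likewise ran from -1.17 to -1.03 in vehicle mice and from 1.24 to 1.56 at 30 µg/kg, and its part in the results below was not tested beyond the fits given with them. Because whole scrapings were sequenced, fewer cells of a type and less RNA per cell cannot be told apart.

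The promoter windows of the apical carriers *Slc15a1*, *Slc6a19* and *Slc6a20a* and of the basolateral carrier *Slc16a10* are shown because these genes were higher at 30 µg/kg and TCDD acts through a DNA-binding receptor. Each window runs 5′ to 3′ in the direction of transcription, from 250 bases before to 50 bases after a RefSeq start (GRCm38.p6, minus strand for all of those shown, with the *Slc6a19* window inside the gene's annotated span), and capitals mark the core of the dioxin response element, GCGTG, or its reverse complement.
Slc15a1 (chr14:121505205-121505504): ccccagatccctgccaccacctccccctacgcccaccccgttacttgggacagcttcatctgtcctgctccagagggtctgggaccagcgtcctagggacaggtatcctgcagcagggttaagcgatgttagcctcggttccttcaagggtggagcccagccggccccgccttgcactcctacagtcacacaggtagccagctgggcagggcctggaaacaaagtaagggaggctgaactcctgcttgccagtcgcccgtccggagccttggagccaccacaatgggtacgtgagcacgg
Slc6a19 (chr13:73692587-73692886): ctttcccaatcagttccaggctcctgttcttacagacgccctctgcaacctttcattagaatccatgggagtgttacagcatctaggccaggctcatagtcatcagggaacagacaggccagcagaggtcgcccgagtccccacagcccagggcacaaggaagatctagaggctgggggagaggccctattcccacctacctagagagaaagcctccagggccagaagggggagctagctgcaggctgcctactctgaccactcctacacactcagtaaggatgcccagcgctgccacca
Slc6a20a (chr9:123678783-123679082): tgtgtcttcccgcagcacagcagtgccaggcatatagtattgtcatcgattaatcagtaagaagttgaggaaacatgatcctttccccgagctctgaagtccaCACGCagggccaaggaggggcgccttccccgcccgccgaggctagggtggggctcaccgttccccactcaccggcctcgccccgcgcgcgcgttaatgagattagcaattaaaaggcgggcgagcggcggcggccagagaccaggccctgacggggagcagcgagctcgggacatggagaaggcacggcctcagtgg
Slc16a10 (chr10:40142205-40142504): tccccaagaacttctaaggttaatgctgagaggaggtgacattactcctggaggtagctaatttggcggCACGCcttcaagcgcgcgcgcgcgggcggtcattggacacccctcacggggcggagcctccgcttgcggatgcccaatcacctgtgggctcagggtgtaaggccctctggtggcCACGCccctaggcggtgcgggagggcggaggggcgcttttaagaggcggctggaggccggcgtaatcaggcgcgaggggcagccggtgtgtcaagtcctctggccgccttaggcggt
Windows were found for all 10 carriers, 15 in number because *Slc7a9* and *Slc7a7* have several starts. GCGTG was present on either strand in 5 of the 15 windows, which belong to *Slc6a20a*, *Slc7a9*, *Slc1a1* and *Slc16a10*, against 32.4% of 32851 mouse promoter windows. The windows of *Slc15a1*, *Slc6a19*, *Slc3a1* and *Slc7a8*, which were called at 30 µg/kg, did not hold these letters. The D-box TTATGTAA (0.938% of all windows) and the E-box CACGTG (7.15% of all windows), which clock factors bind, were in 0 of the 15 windows.

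In vehicle ileum the carriers spanned a wide range of levels. Per kilobase of exon, *Slc3a1* averaged 181 CPM ± 12.6 (SD, n = 3) and *Slc6a19* 180 ± 7.95 (SD, n = 3), with overlapping ranges. *Slc7a9* followed at 137 CPM per kilobase ± 8.26 (SD, n = 3) and *Slc15a1* at 93.98 ± 17.8 (SD, n = 3), each separated from its neighbours in all mice. *Slc7a7* (72.4 CPM per kilobase) stood above *Slc3a2* (42.1), *Slc1a1* (35.6) and *Slc6a20a* (32.3), and the last 3 of these overlapped their neighbours in the order. *Slc16a10* at 18.5 CPM per kilobase and *Slc7a8* at 8.84 were the lowest. The 6 apical genes summed to between 632 and 685 CPM per kilobase in the vehicle mice, and the 4 basolateral genes to between 131 and 148. At 30 µg/kg the apical sum was 610 to 1649 CPM per kilobase and the basolateral sum 137 to 225, so both ranges began below the vehicle range or within it and ended above it.

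**Figure D1:**
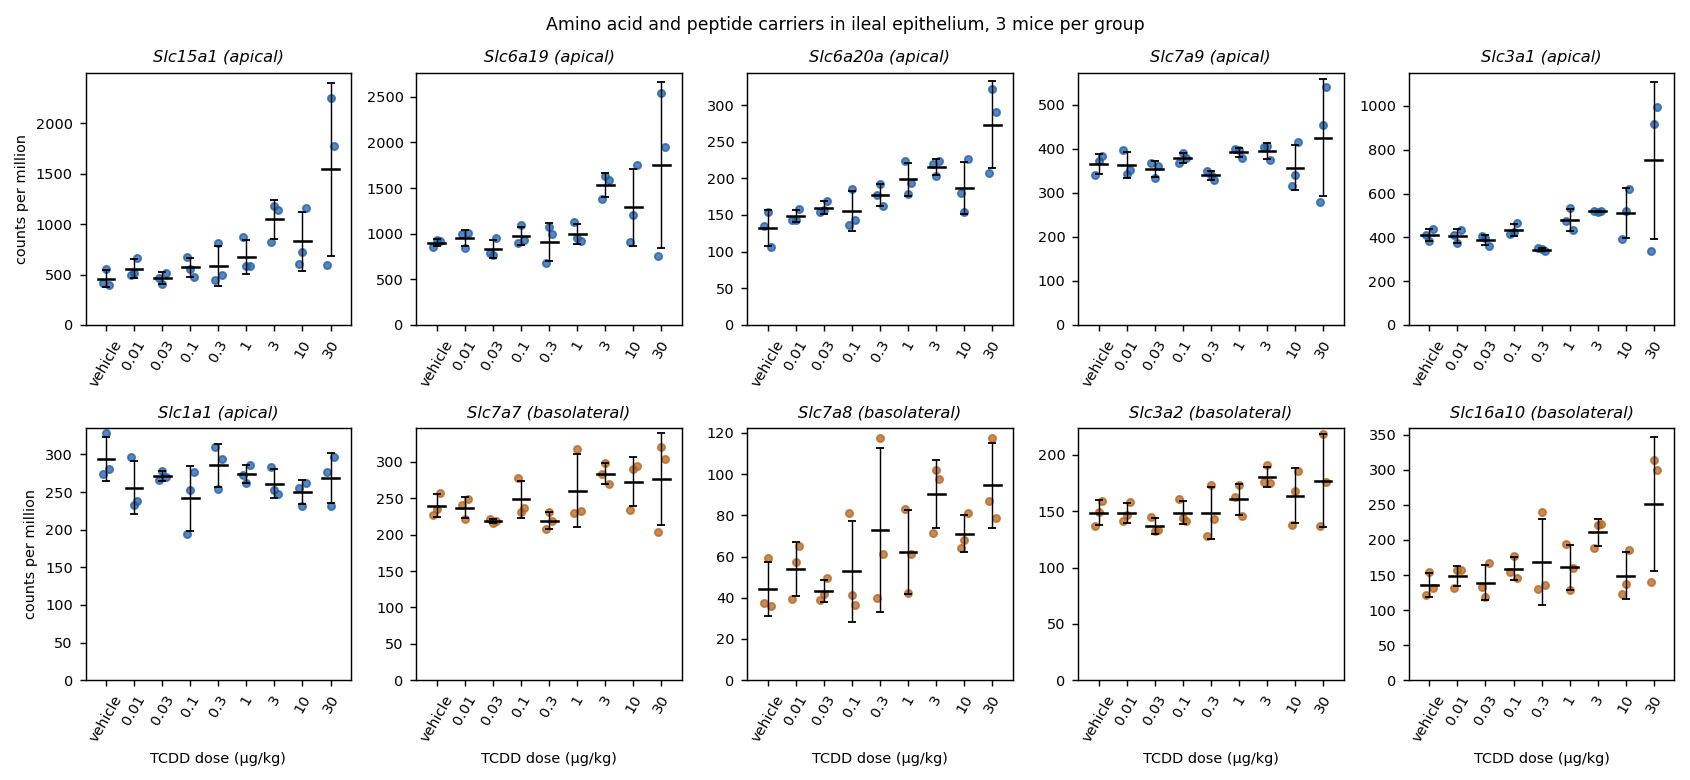
CPM (y axes, from 0) of the 10 carriers against TCDD dose (x axes), with 1 point per mouse, the group mean as a horizontal line and the SD as a bar (n = 3). Blue marks apical and brown basolateral carriers. *Slc15a1* runs from 397 to 559 CPM in vehicle mice to 595, 2252 and 1778 CPM at 30 µg/kg, while *Slc1a1* stays between 194 and 328 CPM throughout.

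The question put to each carrier was whether its transcript changed with dose. At 30 µg/kg TCDD, 6 of the 10 carriers were called and all 6 rose, namely *Slc15a1*, *Slc6a19*, *Slc6a20a*, *Slc3a1*, *Slc7a8* and *Slc16a10*, while 9.40% of all genes tested were called and 5.42% were called upwards. The median log2 fold change was 0.88 over the 10 carriers and 0.02 over all genes. At 3 µg/kg only *Slc6a20a* was called, against 1.11% of all genes in either direction and 0.645% upwards, with a median log2 fold change of 0.485 over the carriers. At 1 µg/kg (0.591% of all genes called) and at 10 µg/kg (2.53%) the count of carriers called by edgeR was 0, with 1 and 3 of them respectively at an unadjusted p under 0.05. At 0.01, 0.03, 0.1 and 0.3 µg/kg, where edgeR called 0% of all genes, it called 0 carriers, and at most 2 carriers at a dose had an unadjusted p under 0.05. DESeq2 called 0 carriers at those 4 doses, and 6 carriers at 30 µg/kg, 2 at 3 µg/kg, 1 at 1 µg/kg and 0 at 10 µg/kg.

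*Slc15a1* (ENSMUSG00000025557, chromosome 14, 121459621 to 121505252, minus strand), the peptide carrier, had the largest fold change of the 10 at 30 µg/kg. Vehicle mice 2, 3 and 4 had 421, 559 and 397 CPM. Mice given 3 µg/kg (50, 51 and 52) had 823, 1178 and 1140 CPM, those given 10 µg/kg (57, 58 and 59) 605, 723 and 1160 CPM, and those given 30 µg/kg (65, 67 and 68) 595, 2252 and 1778 CPM. Every mouse at 1, 3, 10 and 30 µg/kg was above every vehicle mouse, although mouse 65 exceeded the highest of them by little and mice 67 and 68 by several fold. *Slc15a1* was induced 3.36-fold at 30 µg/kg (log2 fold change 1.75 ± 0.33 SE, adjusted p = 0.000878 by edgeR). At 3 µg/kg the estimate was 2.28-fold (log2 1.19 ± 0.33 SE, adjusted p = 0.0657 by edgeR), which missed the threshold. Over the 4 lowest doses, 12 mice ranged from 404 to 814 CPM around a median of 508.5, with the highest value in mouse 35 at 0.3 µg/kg.

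*Slc6a19* (ENSMUSG00000021565, chromosome 13, 73679745 to 73704865, minus strand), which encodes the main sodium-coupled carrier of neutral amino acids, was at 857, 930 and 920 CPM in the vehicle mice. It was at 1382, 1629 and 1587 CPM at 3 µg/kg, at 913, 1207 and 1748 CPM at 10 µg/kg, and at 755, 2540 and 1955 CPM at 30 µg/kg. The groups at 3 µg/kg and vehicle did not overlap, whereas at 30 µg/kg mouse 65 lay below every vehicle mouse and mice 67 and 68 lay above. The fitted change at 30 µg/kg was 1.94-fold (log2 0.96 ± 0.27 SE, adjusted p = 0.0165 by edgeR). At 3 µg/kg it was 1.70-fold (log2 0.76 ± 0.27 SE, adjusted p = 0.169 by edgeR), not past the threshold.

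*Slc6a20a* (ENSMUSG00000036814, chromosome 9, 123634770 to 123678885, minus strand), the imino acid carrier, had the smallest adjusted p of the 10 at 30 µg/kg. The vehicle mice had 135, 155 and 107 CPM. Values of 224, 179 and 194 CPM were measured at 1 µg/kg, and of 220, 203 and 224 CPM at 3 µg/kg. The mice given 10 µg/kg had 181, 154 and 226 CPM, and those given 30 µg/kg had 207, 321 and 291 CPM. No mouse at 0.3, 1, 3 or 30 µg/kg overlapped the vehicle mice, and at 10 µg/kg mouse 58 fell just within their range. *Slc6a20a* was induced 1.63-fold at 3 µg/kg (log2 0.71 ± 0.15 SE, adjusted p = 0.0165 by edgeR) and 2.07-fold at 30 µg/kg (log2 1.05 ± 0.16 SE, adjusted p = 7.4e-05 by edgeR). The call at 3 µg/kg was lost when vehicle mouse 2 or 4, or mouse 50 or 52, was left out (adjusted p from 0.0615 to 0.172 by edgeR). It was also lost with scaling to enterocyte markers (log2 0.49, adjusted p = 0.419 by edgeR), with index use as covariate (adjusted p = 0.19 by edgeR) and with the clock score as covariate (adjusted p = 0.999 by edgeR). Of its 50-base stretches, 15.3% also occur in *Slc6a20b*, the neighbouring copy, and 14.3% of its exon bases overlap genes of the opposite strand, *Ccr9* among them. Strand use in counting is not given in the sources used here, so reads of these genes cannot be told apart there. *Slc6a20b* itself was at 11.4, 11.8 and 7.82 CPM in vehicle mice and at 17.1, 27.8 and 21.9 CPM at 30 µg/kg, with no overlap, and was called (2.15-fold, adjusted p = 0.00166 by edgeR).

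*Slc7a9* (ENSMUSG00000030492, chromosome 7, 35448796 to 35466036, plus strand) and *Slc3a1* (ENSMUSG00000024131, chromosome 17, 85028376 to 85064236, plus strand) encode the light and heavy chain of the apical exchanger that takes up cystine and cationic amino acids. *Slc3a1* was at 411, 382.5 and 440 CPM in vehicle mice, at 520, 516 and 519 CPM at 3 µg/kg, and at 338, 919 and 996 CPM at 30 µg/kg. *Slc7a9* was at 340.5, 373 and 383 CPM in vehicle mice and at 279.5, 453 and 541 CPM at 30 µg/kg. For both chains mouse 65 was below the vehicle mice and mice 67 and 68 were above. The heavy chain was induced 1.83-fold (log2 0.87 ± 0.22 SE, adjusted p = 0.0095 by edgeR), and the light chain was not called (log2 0.22 ± 0.14 SE, adjusted p = 0.319 by edgeR, 95% interval -0.08 to 0.51). Within a mouse, the log2 ratio of light to heavy chain counts was -0.27, -0.04 and -0.20 in vehicle mice and -0.28, -1.02 and -0.88 at 30 µg/kg. The mean difference was -0.56, and an exact two-sided permutation test gave p = 0.1, the smallest that 3 mice against 3 allow. Of the exon bases of *Slc3a1*, 26.5% overlap *Prepl* on the other strand.

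*Slc1a1* (ENSMUSG00000024935, chromosome 19, 28835049 to 28913960, plus strand), the glutamate and aspartate carrier, was the one apical gene with a mean below vehicle at every dose. It was at 274, 328 and 280 CPM in vehicle mice, at 255, 232 and 262 CPM at 10 µg/kg and at 276.5, 232 and 297 CPM at 30 µg/kg. The 3 mice at 10 µg/kg were below the vehicle mice and those at 30 µg/kg were not. It was not called at 10 µg/kg (log2 -0.24 ± 0.12 SE, adjusted p = 0.317 by edgeR) or at 30 µg/kg (log2 -0.13 ± 0.12 SE, adjusted p = 0.489 by edgeR), where the 95% interval ran from -0.38 to 0.116. Of its exon bases, 31.9% overlap *4430402I18Rik* on the other strand.

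On the basolateral side, *Slc16a10* (ENSMUSG00000019838, chromosome 10, 40033532 to 40142258, minus strand), which lets aromatic amino acids out, was at 121, 154 and 132 CPM in vehicle mice. It was at 189, 221 and 222.5 CPM at 3 µg/kg, at 123, 137.5 and 186 CPM at 10 µg/kg, and at 140.5, 314 and 299 CPM at 30 µg/kg. The mice at 3 µg/kg were all above vehicle, while mice 57 and 58 at 10 µg/kg and mouse 65 at 30 µg/kg were within the vehicle range. *Slc16a10* was induced 1.85-fold at 30 µg/kg (log2 0.89 ± 0.24 SE, adjusted p = 0.014 by edgeR). *Slc7a8* (ENSMUSG00000022180, chromosome 14, 54722209 to 54781946, minus strand), the light chain LAT2 that exchanges neutral amino acids, was at 37.6, 59.4 and 35.8 CPM in vehicle mice. It was at 71.5, 102 and 97.6 CPM at 3 µg/kg, at 64.1, 68.0 and 81.3 CPM at 10 µg/kg and at 87.2, 118 and 78.7 CPM at 30 µg/kg. Every mouse at 3, 10 and 30 µg/kg was above every vehicle mouse, and in this gene mouse 65 was not the lowest of its group. *Slc7a8* was induced 2.14-fold at 30 µg/kg (log2 1.095 ± 0.33 SE, adjusted p = 0.0228 by edgeR). Mouse 35 at 0.3 µg/kg, with 117 CPM, was above 2 of the 3 mice given 30 µg/kg.

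*Slc7a7* (ENSMUSG00000000958, chromosome 14, 54369442 to 54417780, minus strand), the light chain y+LAT1 that exports cationic amino acids, and its heavy chain *Slc3a2* (ENSMUSG00000010095, chromosome 19, 8706882 to 8723369, minus strand) were not called at any dose. *Slc7a7* was at 227, 236 and 258 CPM in vehicle mice, at 283.5, 298.5 and 269.6 CPM at 3 µg/kg and at 204, 320.3 and 304.5 CPM at 30 µg/kg. *Slc3a2* was at 137, 149.7 and 159 CPM in vehicle mice, at 175.5, 191 and 175 CPM at 3 µg/kg and at 137, 219 and 176 CPM at 30 µg/kg. Both genes were above vehicle in all 3 mice at 3 µg/kg, and at 30 µg/kg mice 67 and 68 lay above the vehicle mice. Mouse 65 lay below the vehicle mice for *Slc7a7* and was level with vehicle mouse 2 for *Slc3a2* (136.8 against 137.0 CPM). At 30 µg/kg the log2 fold change was 0.20 ± 0.14 SE for *Slc7a7* (adjusted p = 0.329 by edgeR). For *Slc3a2* it was 0.25 ± 0.13 SE (adjusted p = 0.197 by edgeR). The log2 ratio of *Slc7a7* to *Slc3a2* differed by -0.05 between 30 µg/kg and vehicle (exact two-sided permutation p = 0.5). The log2 ratio of *Slc7a8* to *Slc3a2* was -1.86, -1.33 and -2.15 in vehicle mice and -0.65, -0.89 and -1.16 at 30 µg/kg, without overlap, a difference of 0.88 (exact two-sided permutation p = 0.1, the smallest possible).

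**Figure D2:**
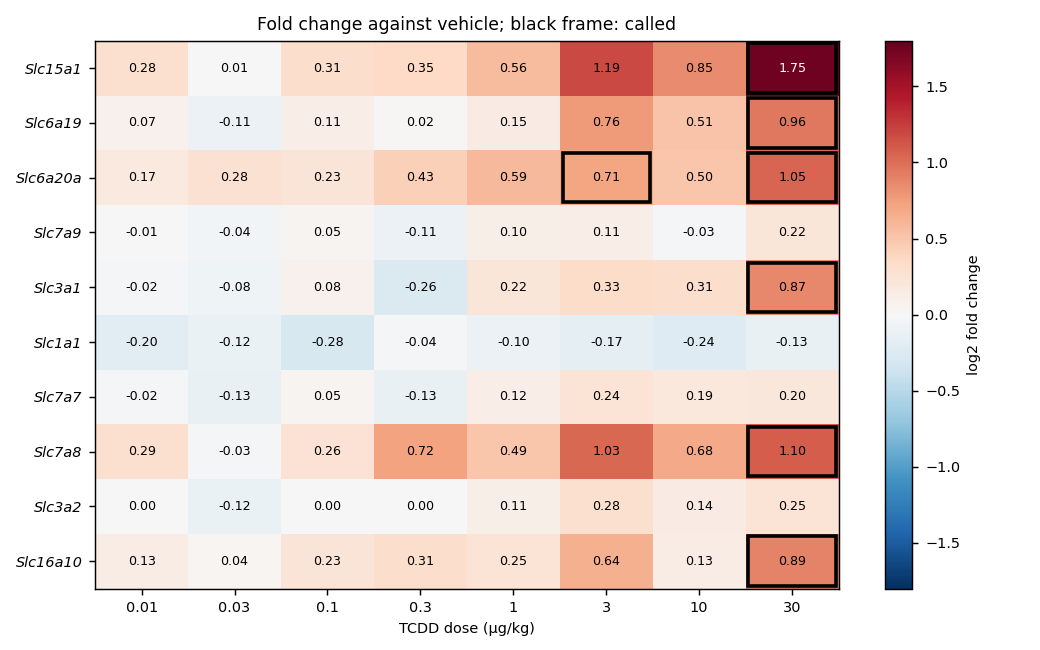
Log2 fold change against vehicle (colour and printed value) for each carrier (rows, apical above basolateral) at each TCDD dose in µg/kg (columns), from edgeR's fit to 3 mice per group. Black frames mark called values, which are *Slc6a20a* at 3 µg/kg and 6 carriers at 30 µg/kg. *Slc1a1* is negative at all 8 doses.

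Across the whole dose range, an edgeR test of any difference among the 9 groups passed an adjusted p of 0.05 for *Slc15a1*, *Slc6a19*, *Slc6a20a* and *Slc3a1*, 4 of 10, against 9.53% of all genes. A slope on the rank of the dose passed for 8 of 10, all upwards, against 26.2% of all genes in either direction and 13.4% upwards. The slope of *Slc15a1* was 0.19 ± 0.03 SE log2 units per dose step (adjusted p = 2.5e-05 by edgeR), and *Slc7a9* and *Slc1a1* did not pass. Within the mice of the first index use the slope of *Slc15a1* was 0.11 (adjusted p = 0.234 by edgeR), and within the second use it was 0.37 (adjusted p = 0.261 by edgeR). *Slc6a20a* had slopes of 0.11 (adjusted p = 0.0646 by edgeR) and 0.15 (adjusted p = 0.342 by edgeR) in the first and second use. Within either use alone edgeR passed 0 of the 10 slopes. Groups that share an index use can also be compared directly, and edgeR called 0 carriers between 30 and 3 µg/kg (0.890% of all genes) and 0 between 10 and 3 µg/kg (0.0418%), with 2 and 1 carriers at an unadjusted p under 0.05 and 0 called by DESeq2. All 10 fold changes of 10 against 3 µg/kg were below 0, with a median of -0.176 on the log2 scale against 0.00475 over all genes. The values of a mouse share a library, so these signs are not separate observations. *Slc16a10* was lower in every mouse at 10 µg/kg than in every mouse at 3 µg/kg (log2 -0.50 ± 0.24 SE, adjusted p = 0.764 by edgeR), as were 6.24% of all genes.

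The order of levels was uneven above 1 µg/kg. At 3 µg/kg 8 of the 10 carriers were higher in all 3 mice than in all 3 vehicle mice, against 12.4% of all genes. At 10 µg/kg this held for *Slc15a1* and *Slc7a8* (background 11.5%), and at 30 µg/kg for *Slc15a1*, *Slc6a20a* and *Slc7a8* (background 13.7%). When each carrier's 9 groups were ordered by mean, neighbouring groups overlapped in 8 of 8 pairs for every carrier except *Slc3a1*, with 7 of 8.

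The mice at 30 µg/kg differed widely among themselves. Mouse 65 was below the mean of its group in 9 of 10 carriers, with a median deviation of -0.48 log2 units, whereas mice 67 and 68 were each above the mean in 9 of 10. Mouse 57 at 10 µg/kg was likewise below its group's mean in 9 of 10 carriers (median deviation -0.23), and mouse 59 was above it in 10 of 10. The summed level of the 10 enterocyte markers was 15890, 16930 and 15390 CPM in vehicle mice and 11620, 24770 and 21750 CPM in mice 65, 67 and 68. Smooth muscle markers summed to 333 CPM in mouse 65, 76.3 in mouse 67 and 35.3 in mouse 68, against 24.4 to 104 in vehicle mice, and at 10 µg/kg they summed to 242, 376 and 43.6 CPM in mice 57, 58 and 59. Their part in the result was not tested. *Fabp6*, the ileal bile acid binding protein, ran the other way, at 1492, 680.2 and 474.5 CPM in mice 65, 67 and 68 against 1490.0 to 1810.0 CPM in vehicle mice. Without mouse 65, edgeR still called 6 carriers at 30 µg/kg, and the fold change of *Slc15a1* on the log2 scale was 2.103. Without mouse 67 it called 2, *Slc15a1* and *Slc6a20a*, and without mouse 68, vehicle mouse 2 or vehicle mouse 4 it called 3.

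**Figure D3:**
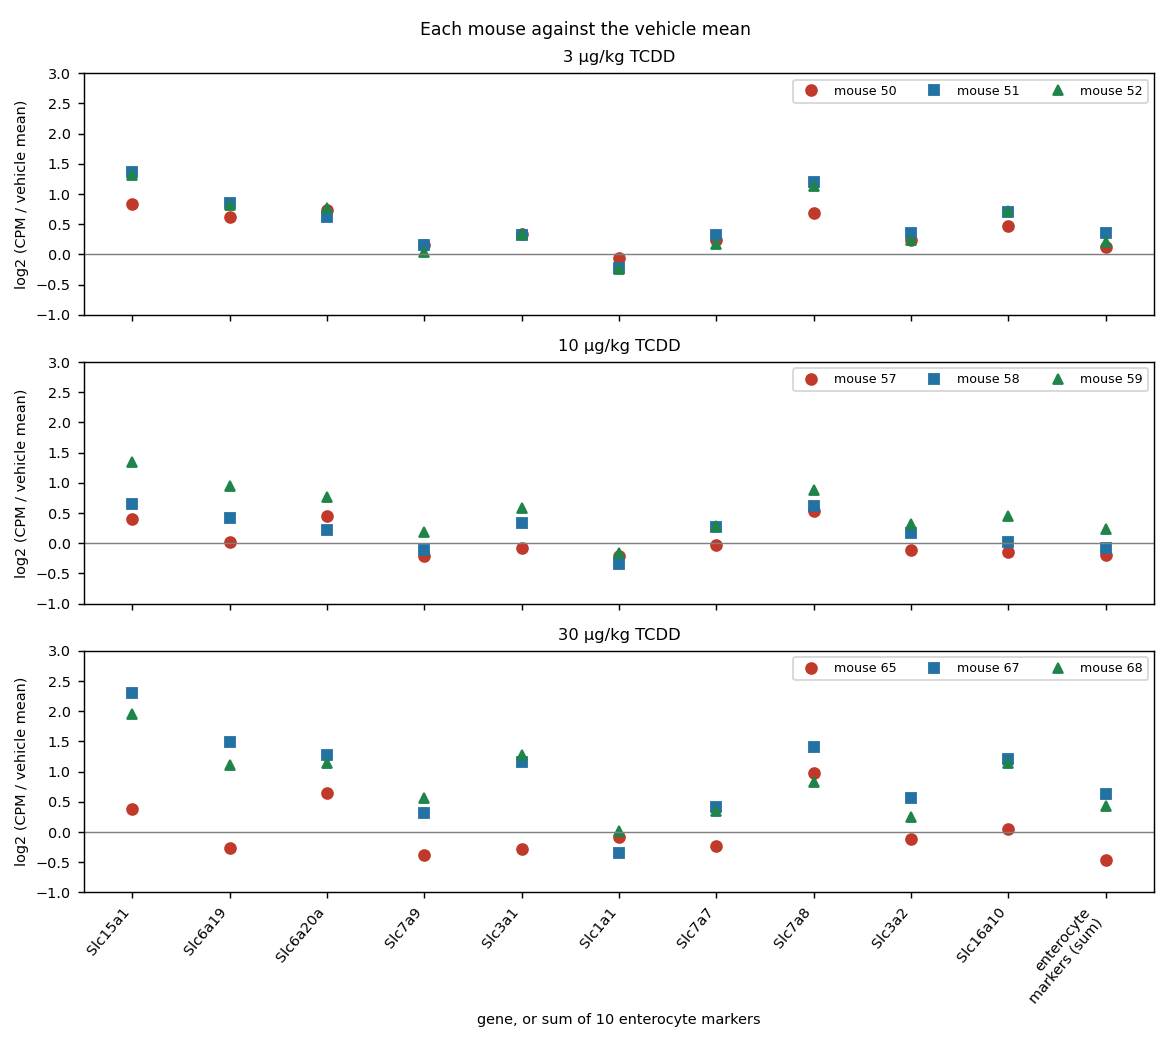
Log2 of each mouse's CPM over the vehicle mean (y axis) for the 10 carriers and the sum of 10 enterocyte markers (x axis), with 1 panel for each of 3, 10 and 30 µg/kg TCDD and 1 symbol per mouse. The mice lie close together at 3 µg/kg, and at 30 µg/kg mouse 65 lies below mice 67 and 68 for every item except *Slc7a8* and *Slc1a1*.

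The carriers were also set against the enterocyte markers of the same mouse. Per 1000 CPM of summed enterocyte markers, *Slc15a1* was at 26.5, 33.0 and 25.8 CPM in vehicle mice and at 51.2, 90.9 and 81.7 CPM at 30 µg/kg. *Slc6a19* was at 53.9, 54.9 and 59.8 against 65.0, 103 and 89.9. *Slc3a1* (25.9, 22.6 and 28.6 against 29.1, 37.1 and 45.8) and *Slc7a8* (2.37, 3.51 and 2.32 against 7.5, 4.75 and 3.62) each had a lowest mouse at 30 µg/kg only narrowly above the highest vehicle mouse. The ratio of means on this scale was 2.62 for *Slc15a1* and 1.45 to 1.94 for the other called carriers, and *Slc7a9*, *Slc7a7*, *Slc3a2* and *Slc1a1* overlapped vehicle with ratios from 0.854 to 1.03. With all genes scaled this way, a setting added after the data were seen, edgeR called *Slc15a1*, *Slc6a19* and *Slc6a20a* at 30 µg/kg, 3 carriers against 3.52% of all genes. The calls of *Slc3a1* (adjusted p = 0.0608 by edgeR), *Slc7a8* (adjusted p = 0.0735 by edgeR) and *Slc16a10* (adjusted p = 0.0604 by edgeR) were lost, and the median over all genes moved to -0.12 on the log2 scale.

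The 6 calls at 30 µg/kg also depended on what was fitted beside dose. With library index use as a covariate, which separates it from dose through the 3 mice at 1 µg/kg, 2 carriers were called against 2.88% of all genes, *Slc15a1* (log2 2.33, adjusted p = 0.0241 by edgeR) and *Slc6a20a* (log2 1.31, adjusted p = 0.0105 by edgeR). With the clock score as a covariate edgeR called 0 carriers and 0.0538% of all genes, 9 of 16741, and the log2 fold change of *Slc15a1* was 0.43 (adjusted p = 0.868 by edgeR). Fitted to only the vehicle and 30 µg/kg mice, edgeR called *Slc6a20a* and *Slc7a8*, 2 carriers against 4.37% of all genes, and *Slc15a1* missed the threshold (adjusted p = 0.0529 by edgeR). So did *Slc6a19* (adjusted p = 0.169 by edgeR), *Slc3a1* (adjusted p = 0.179 by edgeR) and *Slc16a10* (adjusted p = 0.105 by edgeR). That fit takes its spread from these mice alone, whereas the main fit shares 1 estimate of spread over all 9 groups. Between vehicle and 30 µg/kg the clock score cannot be told apart from dose. *Dbp*, a clock output gene, was at 0.346 to 0.634 CPM in vehicle mice and at 29.5 to 55.8 CPM at 30 µg/kg. Mouse 14, given 0.01 µg/kg, had a clock score of 0.72 while its 2 group mates were at -1.04 and -0.98. Mouse 14 was above the mean of its group in 8 carriers and below it in 2, with a median deviation of 0.09 log2 units. Its *Slc15a1* was at 664 CPM against 496 and 517 CPM in its group mates. *Slc6a20a* (158.7 against 143.8 and 143.5 CPM) and *Slc7a8* (65.25 against 39.45 and 57.45 CPM) were also highest in mouse 14. *Slc6a19* (1007 against 993 and 847 CPM) and *Slc16a10* (156.8 against 131.5 and 156.9 CPM) were close to the higher mate. Whether the clock score had a part in these values of a single mouse was not tested.

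**Figure D4:**
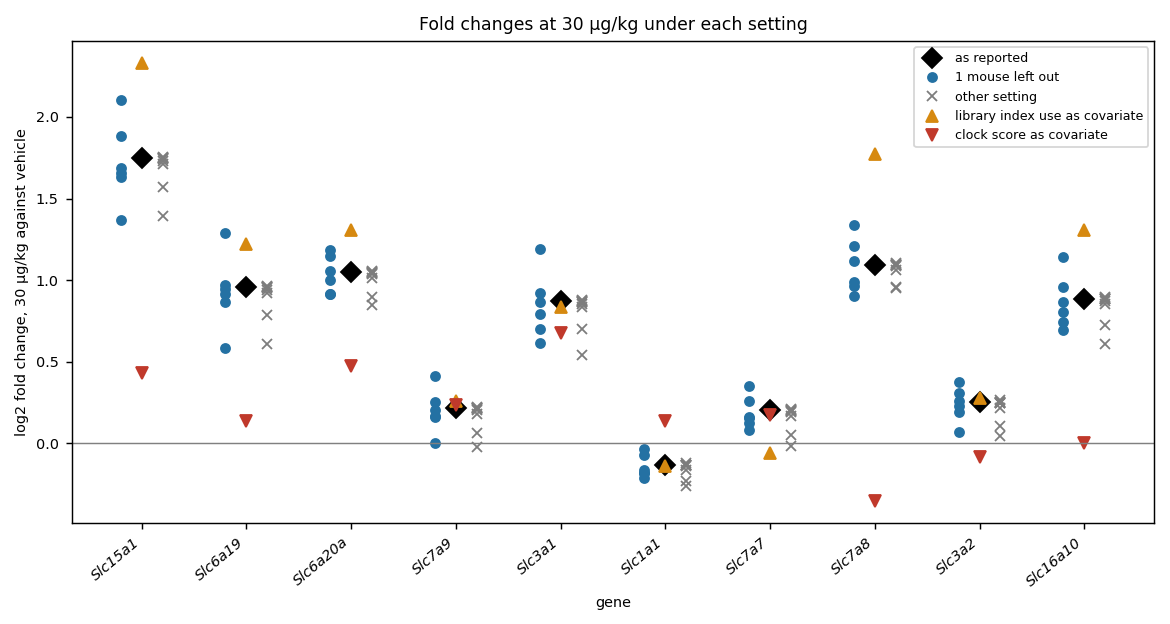
Log2 fold change of each carrier at 30 µg/kg against vehicle (y axis) under the fit as reported (black), with 1 mouse left out (blue), with index use (orange) or the clock score (red) as covariate, and under other settings (grey crosses). For *Slc15a1* the values run from 0.43 with the clock score to 2.33 with index use, and for *Slc7a8* from -0.35 to 1.78.

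Within groups many of the carriers varied together from mouse to mouse, with 27 of 45 pairs at a correlation above 0.5. *Slc1a1* reached at most 0.185 over the 27 mice, with *Slc7a9*, a pair at 0.396 over the 24 mice without the 30 µg/kg group. *Slc7a8* was also low with *Slc3a1* (-0.0254) and *Slc7a9* (-0.0449) over the 27 mice. The same measure was not taken for pairs of other genes. Over 27 mice, the correlation of deviations from the group mean of log2 CPM had a median of 0.612 over the 45 pairs of carriers, and 0.354 over the 24 mice without the 30 µg/kg group. Of the pairs that form heterodimers, *Slc7a9* with *Slc3a1* was at 0.906 and *Slc7a7* with *Slc3a2* at 0.824 (0.639 and 0.742 without 30 µg/kg), while *Slc7a8* with *Slc3a2* was below the median at 0.505 (0.547 without 30 µg/kg). *Slc15a1* and *Slc16a10* were at 0.921 (0.868 without 30 µg/kg). The lowest value was -0.578, for *Slc1a1* with *Slc7a8*. The values of a mouse share a library and its scaling, so these are descriptions only. Among all genes tested, the pattern of *Slc15a1* over the 27 mice was most like that of *Slc5a1*, the sodium-glucose cotransporter (Pearson r = 0.964), *Slc7a15* (0.958) and *Ace*, a brush border peptidase (0.957). Genes like *Slc6a19* in pattern included *Ezr*, which links the brush border membrane to actin (0.955), and *Slc25a5*, a mitochondrial ADP/ATP carrier (0.944). For *Slc6a20a* they were *Pcnx*, *Abcc5* and *Acer1* (0.926 to 0.951), for *Slc3a1* *F2rl1*, *Emp1* and *Rhoc* (0.931 to 0.941), for *Slc7a8* *Nek6*, *Epb41l3* and *Maob* (0.918 to 0.937), and for *Slc16a10* *Flvcr1*, *Cyp4v3* and *Hpgd* (0.897 to 0.915). The values include the differences between groups.

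Of 34 other amino acid and peptide transporter genes, 30 were tested and 10 were called at 30 µg/kg, 7 up and 3 down, with a median log2 fold change of 0.12. The shares over all genes were 9.40% called in either direction and 5.42% called upwards, with a median of 0.02. The largest fall was that of *Slc6a14*, a sodium- and chloride-coupled carrier of neutral and cationic amino acids, at 92.5, 48.1 and 162 CPM in vehicle mice and 3.01, 3.71 and 40.5 CPM at 30 µg/kg (6.49-fold lower, adjusted p = 0.0252 by edgeR). The groups did not overlap, although mice of 1 group could spread widely for this gene, for example from 6.66 to 114 CPM at 0.3 µg/kg. *Slc7a15*, a light chain of the *Slc7a9* family, rose 3.21-fold (adjusted p = 0.0017 by edgeR), from 46.5, 68.6 and 46.4 CPM to 70.3, 276 and 173 CPM. *Slc6a18*, a relative of *Slc6a19*, was at 9.53 CPM in mouse 65 and at 38.3 and 39.7 CPM in mice 67 and 68, against 8.36 to 16.3 CPM in vehicle mice (2.47-fold, adjusted p = 0.0148 by edgeR). *Slc7a2*, a carrier of cationic amino acids (2.16-fold), and *Slc1a4*, a carrier of small neutral amino acids (1.92-fold), were also called. The other 4 called genes, named after their values were seen, were the taurine carrier *Slc6a6* (1.90-fold higher), the neutral amino acid carrier *Slc43a2* (1.803-fold higher), and *Slc7a5* and *Slc7a1*, which carry large neutral and cationic amino acids into growing cells (1.89-fold and 1.81-fold lower). *Slc6a6* was at 311, 339 and 319.6 CPM in vehicle mice and at 580.2, 679 and 583 CPM at 30 µg/kg, where mouse 65 stood with the other two. *Slc7a1* was at 85.2, 72.5 and 114 CPM in vehicle mice and at 64.5, 38.3 and 47.7 CPM at 30 µg/kg, without overlap, and was also called at 3 and 10 µg/kg.

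Among 16 brush border peptidases and partners of the carriers, 14 were tested, 6 rose and 1 fell at 30 µg/kg, with a median log2 fold change of 0.54. Beside these lists, 9.40% of all genes were called at that dose and 5.42% were called upwards. Among those that rose were *Ace* (2.01-fold), the scaffold *Pdzk1* (1.67-fold) and the peptidases *Dpep1* (1.61-fold), *Xpnpep2* (1.58-fold) and *Enpep* (1.57-fold), the last named after its value was seen. *Slc9a3*, the sodium-proton exchanger that supplies PEPT1 with protons, fell. It was at 77.4, 96.5 and 90.2 CPM in vehicle mice, at 36.8, 38.8 and 34.3 CPM at 3 µg/kg, at 38.9, 40.2 and 24.7 CPM at 10 µg/kg and at 26.5, 39.7 and 23.6 CPM at 30 µg/kg. All 9 mice at these doses were below all vehicle mice, and the fall was 2.54-fold for 10 µg/kg (adjusted p = 0.0253 by edgeR) and 2.94-fold for 30 µg/kg (adjusted p = 0.00304 by edgeR). At 3 µg/kg it was 2.40-fold (adjusted p = 0.0549 by edgeR) and missed the threshold. Mice of the lower doses were also low for this gene, down to 25.4 CPM in mouse 27 at 0.1 µg/kg, and mouse 65 did not stand apart. Of 8 cytosolic peptidases, which split absorbed peptides, 7 were tested and 0 were called by edgeR at 30 µg/kg, with 5 at an unadjusted p under 0.05 and a median log2 fold change of 0.335. Of 12 enterocyte transcription factors, *Ppara* (1.88-fold) and *Maf* (1.52-fold) rose and 0 fell, with a median of 0.13.

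Genes of the ATF4 amino acid response, which cells switch on when amino acids run short, fell more often than they rose. Of 18, 17 were tested, 1 rose and 7 fell at 30 µg/kg, with a median log2 fold change of -0.365. Of all genes, 9.40% were called in either direction and 5.42% upwards, with a median of 0.02. *Asns*, asparagine synthetase, was at 41.7, 26.5 and 58.6 CPM in vehicle mice and at 22.0, 12.4 and 14.98 CPM at 30 µg/kg, without overlap (2.57-fold lower, adjusted p = 0.001 by edgeR). *Chac1*, which degrades glutathione, fell 3.70-fold, and the serine and folate pathway genes *Psat1* (2.18-fold), *Phgdh* (1.93-fold) and *Mthfd2* (1.88-fold) fell as well, together with *Shmt2* and *Aldh18a1*, named after their values were seen. *Trib3*, a pseudokinase that the same factor induces, rose 4.98-fold (adjusted p = 0.000123 by edgeR), from 3.38, 2.79 and 3.39 CPM to 6.80, 21.8 and 19.2 CPM.

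**Figure D5:**
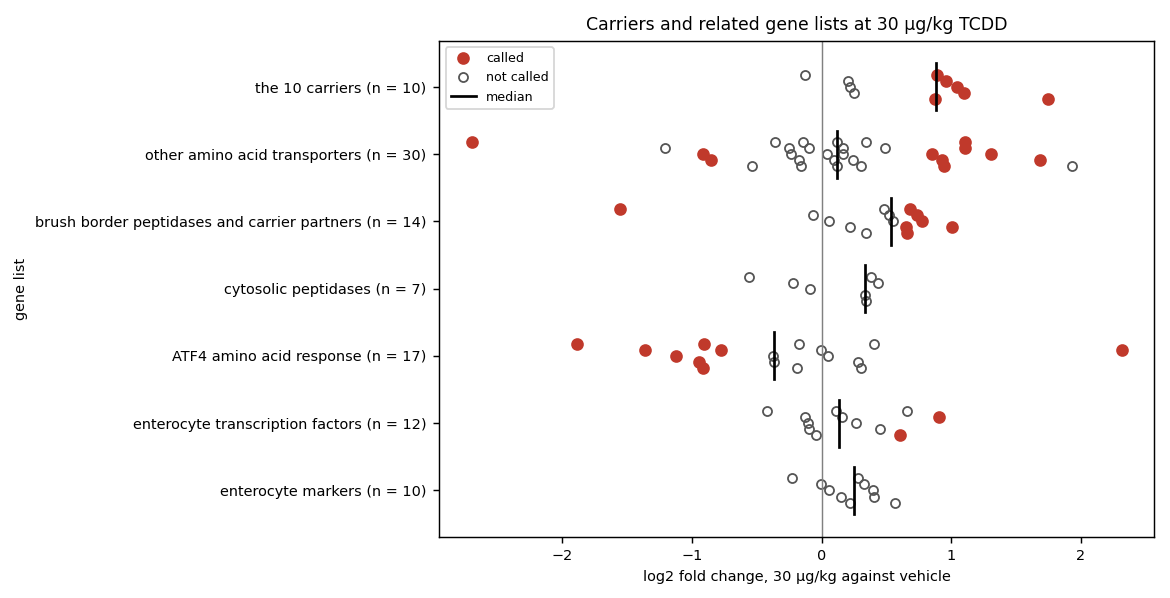
Log2 fold change at 30 µg/kg against vehicle (x axis) for the tested genes of each list (rows), with called genes filled in red, other genes open and the list's median as a black bar. The 10 carriers have a median of 0.88, the other amino acid transporters 0.12 and the ATF4 list -0.365.

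Markers of the cell types that a scraping can hold were counted in the same contrast, in which 9.40% of all genes were called and 5.42% were called upwards. Of the enterocyte markers 0 of 10 were called by edgeR at 30 µg/kg, with 3 at an unadjusted p under 0.05 and a median log2 fold change of 0.25. *Cubn* and *Slc10a2* rose and *Fabp6* and *Fgf15* fell among 7 ileal markers, *Fabp1* rose among 6 jejunal markers, and *Egfr* fell among 5 villus tip markers. *Zg16* rose among 6 goblet cell markers, and *Chga*, *Chgb* and *Neurod1* rose among 5 enteroendocrine markers. *Lgr5* and *Top2a* fell among 5 stem and cycling cell markers, and *Igha*, *Jchain* and *Mzb1* fell among 5 plasma and B cell markers, whose sum was 1383 to 1920 CPM in vehicle mice and 326.0 to 737 CPM at 30 µg/kg. Paneth cell, T cell, macrophage and smooth muscle markers gave 0 calls by edgeR, with 0 at an unadjusted p under 0.05 in each list. Of 15 clock genes 10 rose and 4 fell, and of 5 AhR target genes 4 rose. The part of these shifts in the carrier levels was not tested.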

How the data were processed

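Read counts per Ensembl gene were deposited by the authors as 1 table per mouse, unnormalized. The submitters' processing notes list FastQC 0.11.3, Trimmomatic 0.33, TopHat2 2.1.0, SAMtools 1.2.0, HTSeq 0.6.1 and DESeq with GRCm38, without roles, and the counting options and use of strand are not given in the sources used here. Of the uniquely aligned reads of a mouse, 44.5 to 49.5% were assigned to no gene and were left out. Alignments that were not unique, from 11.1 M in mouse 3 to 16.4 M in mouse 33, were left out as well. Gene models were GENCODE M21.

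Counts were analysed in R 4.3.3 with edgeR 4.0.16 (trimmed mean of M values, filterByExpr with a minimum count of 10, glmQLFit on all 27 mice with 1 term per dose group, glmQLFTest). Benjamini-Hochberg adjustment covered all 16741 genes that passed the filter. Calls required both a fold change of 1.5 or more and an adjusted p no higher than 0.05, while the test of any difference and the slope on dose rank used adjusted p alone. DESeq2 1.42.0, other normalizations and filters, covariates, fits to 2 groups and leaving out each mouse were alternatives. Ratios of chains were compared by exact permutation in Python 3.11.15 with scipy 1.17.1. Correlations used log2 CPM with a prior count of 2.

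The carriers and gene lists were chosen with earlier results of these data known. All 10 carriers were described whatever their result, and other listed genes were named if called at 10 or 30 µg/kg (at most 6 per list, by size of change). *Cyp1a1* and *Slc9a3* were always named, and for each called carrier the 3 genes outside the 10 carriers with the highest r were named. A gene that these rules name is not reported here. The procedure was tested on simulated data for 30 µg/kg against vehicle over 16741 genes: 17 of 67 genes changed 1.5-fold were called, 45 of 67 changed 2-fold and 63 of 66 changed 4-fold, with 2 false calls. Of 27 pairs of mice of the same dose, 0 agreed within sampling noise. Library index sequences were read from the file records, and the first and second use of each were assigned by mouse number. The clock score was the first principal component of 15 clock genes and held 81.4% of their variance.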

Additional observations from a re-analysis of the deposited data

How the results depend on the processing

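The count of carriers called at 30 µg/kg (6) was the same with 7 alternatives of normalization, filter, fold limit or tool, and was 2 with index use as covariate, 0 with the clock score as covariate, 2 with only the 2 groups compared (*Slc6a20a* and *Slc7a8*, not *Slc15a1*) and 3 with scaling to enterocyte markers, a setting added after the data were seen. At 3 µg/kg (1) it was 4 without a filter, 0 with index use, 0 with the clock score, 5 with only the 2 groups and 2 with DESeq2. With enterocyte scaling it was again 1, but for *Slc15a1* (adjusted p = 0.0221 by edgeR) in place of *Slc6a20a*. At 1 µg/kg (0) it was 1 without a filter and 1 with DESeq2, and at 10 µg/kg (0) it was 1 without a filter and 1 with enterocyte scaling. Any difference (4) passed for 0 with index use and 0 with the clock score, and the trend (8) for 1 with index use, 0 with the clock score, 0 in the first and 0 in the second use of the indexes. The causes were not tested.

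With 1 mouse left out, the count ran from 0 to 1 at 1, 3 and 10 µg/kg, from 2 to 6 at 30 µg/kg, from 0 to 2 for 30 against 3 µg/kg, from 2 to 7 for any difference and from 6 to 8 for the trend. At 30 µg/kg it was 3 without mouse 2, 4 or 68 and 2 without mouse 67, and for any difference it was 2 without mouse 36, 67 or 68 and 7 without mouse 65.

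Of 800 values of single carriers under an alternative, at 3 µg/kg, at 30 µg/kg or for the slope, 694 kept direction and side of the threshold. With direction kept, 76 lost the call and 9 gained it. The other 21 changed sign, and some of these lost the call as well. With the clock score, the log2 fold change was 0.0489 for *Slc1a1*, -0.17 for *Slc7a8* and -0.10 for *Slc16a10* at 3 µg/kg, and 0.13 for *Slc1a1*, -0.35 for *Slc7a8*, -0.0815 for *Slc3a2* and -0.000652 for *Slc16a10* at 30 µg/kg. With index use *Slc7a7* was at -0.0207 at 3 µg/kg and -0.0604 at 30 µg/kg. With enterocyte scaling *Slc7a9* was at -0.12 at 3 µg/kg and -0.0239 at 30 µg/kg, and *Slc7a7* at -0.0157 at 30 µg/kg. Slopes per dose step changed sign for *Slc7a9* (-0.000273 in the first use, -0.000924 with enterocyte scaling), *Slc3a1* (-0.0104 in the first use), *Slc1a1* (0.00303 with the clock score, 0.00268 without vehicle), *Slc7a7* (-0.0138 with index use, -0.0168 in the first use, -0.00941 in the second) and *Slc3a2* (-0.00763 with the clock score). Scaling by library size alone moved the median of all genes at 30 µg/kg to -0.11.

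No paired analysis was possible because the labels give the mice no replicate numbers shared between groups. With 3 mice per group, exact tests could not go below p = 0.1. The p-values of edgeR's main fit rest on a spread between mice of the same dose that all 9 groups share. Mice at 30 µg/kg spread more widely than vehicle mice (*Slc15a1* SD 853.3 against 87.15 CPM), so the shared spread can understate the error at that dose. Index use and clock score cannot be told apart from dose at the highest doses. In simulated data for 30 µg/kg only 25.4% of 1.5-fold changes were called, a size at which every estimate under the fold limit is lost. The simulated mice had the shared spread, so the share of real changes called among these carriers was not measured.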
